A study of Danio rerio with 416 samples.

Results

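Cells of MZoep zebrafish embryos that held transcripts of noto were compared with cells of the same embryos' genotype that held none. In MZoep embryos neither the mother nor the embryo supplies one-eyed pinhead (oep), the Nodal co-receptor whose gene is now called tdgf1; the allele is tz57. The cells were picked by hand from deyolked, dissociated embryos at 50% epiboly and carried 5-prime libraries with unique molecular identifiers (UMIs), so that each count is 1 captured transcript. Of 416 cells in the series, 88 had such libraries and 86 of these had at least 500 genes with a UMI. The 2 others held 2 UMIs at most. A cell was called a noto cell with 2 or more noto UMIs (42 cells) and a noto-free cell with 0 (31 cells), and the 13 cells with 1 UMI were left out, which left 73 cells. All 73 cells share the genotype, the stage and library batch p0, and no wild-type cell has a UMI library. Other cells served for comparison, both with full-length SMART-seq2 libraries of batches p1 to p4 at the same stage: 245 MZoep tz57 cells and 47 wild-type cells of the TLAB strain. The labels name no embryo or clutch. The 73 cells are therefore 1 sample, cells are not replicates, and no test, p-value or standard error was made from them.

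The homeobox gene noto (floating head) is required in the zebrafish for the notochord and marks the dorsal midline of the gastrula. Dorsal gene expression begins under maternal beta-catenin, and Nodal signals from the margin then induce and maintain the organizer and most mesendoderm. On the dorsal side secreted antagonists such as Chordin limit BMP signals, while Wnt8 and the repressors vox, vent and ved hold back dorsal genes ventrally and laterally. Transcripts of noto in cells that cannot receive Nodal signals thus raise the question of which dorsal or marginal genes accompany them.

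Since noto chose the cells, its own values are a description. In the noto cells it reached 2 to 20 UMIs with a median of 5, or 36.6 to 401.6 UMIs scaled to 1000000 per cell (CPM) with a median of 105.7. The 9 cells just inside the threshold, at 2 UMIs, held 36.6 to 58.45 CPM, and the 13 cells just outside, at 1 UMI, held 15.8 to 28.9 CPM. The counts run on without a gap from 0 to 13 UMIs, so the threshold cuts a range rather than separating distinct sets of cells. A noto-free cell is not shown to lack the transcript. At the median depth of these cells, a count of 0 allows up to 62.6 CPM (3 counts), which is above the level of each of the 9 cells with 2 UMIs.

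**Figure D1:**
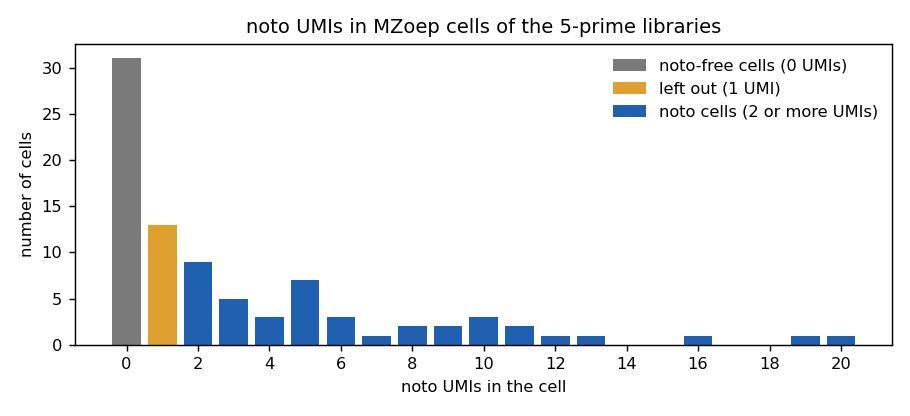
Number of MZoep cells (vertical axis) with each number of noto UMIs (horizontal axis) among the 86 kept cells. Grey marks the 31 noto-free cells, orange the 13 cells with 1 UMI that were left out, and blue the 42 noto cells, whose counts reach 20.

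Sequencing depth was alike on both sides. The noto cells held 31480 to 73231 UMIs with a median of 47271, and the noto-free cells 29246 to 61855 with a median of 47939. The median number of genes with a UMI was 6681.5 and 6618. No 2 cells had identical counts. The transcript of tdgf1 itself was present in all 73 cells, at a mean of 233.8 CPM in noto cells and 175.6 CPM in noto-free cells (log2 ratio 0.40), so its level gives no check of the genotype label. Differences are given as the log2 ratio of the mean CPM of noto cells over that of noto-free cells after adding 5 CPM to each, which understates the differences of low genes. A gene was compared where it had 30 or more UMIs over the 73 cells and a UMI in at least 20% of the cells of either side, and it was called where the means were at least 2-fold apart. Intervals at 95% are exact, Poisson for summed UMIs and binomial for shares of cells. They cover counting error only, and the binomial ones treat the cells of this 1 sample as independent draws, so none covers variation between embryos.

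Of 9517 genes compared besides noto, 122 were called higher in noto cells (1.28%) and 136 were called lower (1.43%). The median log2 ratio over all of them was -0.005. Dorsal genes with higher means included chrd, foxd3 and admp, and the margin gene wnt8a and the germ cell genes nanos3 and dnd1 were among the lowest. The number of calls depends on how levels are averaged. With 20 CPM added in place of 5, 4 genes were higher and 9 lower, and when log2(CPM + 20) was averaged over cells, 0 genes were called in either direction. Without the highest cell of each gene, 79 genes were higher and 77 lower.

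The other markers given for these cells were admp and tbx16. The gene admp encodes a BMP-like ligand made dorsally. Its mean was 92.7 CPM in noto cells and 40.9 CPM in noto-free cells (log2 ratio 1.09). It ranged from 0 to 804.2 CPM with a median of 25.02 in noto cells, and from 0 to 177.8 CPM with a median of 21.2 in noto-free cells. The ranges overlap and the medians are close. A UMI of admp was present in 24 of 42 noto cells (57.1%, exact interval 40.96 to 72.3) and in 16 of 31 noto-free cells (51.6%, 33.1 to 69.8). Summed over cells the level was 98.2 CPM (exact Poisson interval 84.9 to 113.0) against 44.25 CPM (34.1 to 56.4). Cells with 10 or more admp UMIs numbered 5 among noto cells, where they held 59.7% of the side's admp UMIs, and 1 among noto-free cells. Without the highest cell the ratio was 0.81. With every cell thinned to 25000 UMIs and the groups formed again (38 cells on each side) it was 0.40, which is no longer 2-fold.

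The T-box gene tbx16, which acts in paraxial mesoderm, did not separate the groups. It was present in all 73 cells, at 338 to 1724 CPM (median 936) in noto cells and 308 to 2058 CPM (median 1118) in noto-free cells. The means were 949 and 1127 CPM (log2 ratio -0.25). Of the 3 markers, then, tbx16 was found in every cell, and high admp marked a minority of noto cells.

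Genes of the dorsal axis and organizer were followed as a list of 19, of which 14 have a row in the table. Besides noto, 5 passed the filter on low counts (admp, chrd, gsc, foxd3 and tbxta). Of these, 3 were called higher and 0 lower, and their median log2 ratio was 1.09. The share of all compared genes called higher was 1.28%. Passing the filter was possible through a high side alone, so this count describes those 5 genes and no more.

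The highest ratio in the direction of noto cells belonged to chrd, which encodes the BMP antagonist Chordin and is listed under its older symbol chd. Its mean was 176.8 CPM in noto cells and 24.4 CPM in noto-free cells (log2 ratio 2.63). The noto cells ranged from 0 to 1811 CPM with a median of 15.6, and the noto-free cells from 0 to 210.2 CPM with a median of 0. A UMI was found in 22 of 42 noto cells (52.4%, 36.4 to 68) and in 13 of 31 noto-free cells (41.9%, 24.6 to 60.9). Here too the bulk of both groups overlaps, and the difference in means lies in the top of the noto group.

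Exactly 4 noto cells held 50 or more chrd UMIs (57, 58, 65 and 69), and no noto-free cell or cell with 1 noto UMI did; the highest noto-free cell had 13. These 4 cells, picked out after their values were seen, carried 76.6% of all chrd UMIs of the noto cells. They also carried 49.3% of the foxd3 UMIs and 53.6% of the gsc UMIs of that side, but 20.4% of the admp UMIs. Their noto counts were 2, 7, 19 and 20, so both the lowest and the highest noto counts occur among them. The ventral repressor ved, at a median of 68.5 UMIs over noto cells, was at 4, 4, 10 and 11 UMIs in them. Counts of tbx16 were 11, 16, 25 and 42, against a median of 43.5 over all noto cells. Transcripts of wnt8a were at 0 in all 4, and eve1, a ventral margin homeobox gene, was at 0 to 4. Low ved beside dorsal transcripts was not limited to noto cells. A noto-free cell with 0 CPM of ved held 149 CPM of chrd, 149 CPM of foxd3 and 170.3 CPM of gsc. Without these 4 cells the log2 ratio of chrd was 0.64, that of foxd3 0.29 and that of admp 0.88, so each lost its 2-fold call, and the median of the list was 0.29.

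The forkhead gene foxd3, expressed in the organizer and later in neural crest, had means of 113.4 and 46.4 CPM (log2 ratio 1.204). It was detected in 29 of 42 noto cells and 18 of 31 noto-free cells, with medians of 43.4 and 23.4 CPM and highest values of 697.5 and 304.5 CPM. The homeobox gene gsc, which marks the prechordal plate, had means of 35.1 and 15.2 CPM (log2 ratio 0.99) and was seen in 18 and 8 cells. Its highest values were 492.7 and 170.3 CPM, with medians of 0 on both sides. The homeobox gene dharma, an early target of maternal beta-catenin, was too sparse to compare, with 24 UMIs in 4 noto cells and 2 UMIs in 1 noto-free cell.

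Other members of the list had few UMIs or were seen in few cells on both sides. The prechordal and notochord gene foxa3 had 17 UMIs in noto cells and 11 in noto-free cells. The LIM homeobox gene lhx1a had 0 and 1, the BMP antagonist nog1 had 4 and 2, and the Wnt antagonist dkk1b had 26 UMIs in 8 cells and 44 in 5 cells. The secreted Wnt inhibitor frzb had 5 UMIs in 1 noto cell and 0 in noto-free cells. The homeobox genes hhex and otx2 had 1 and 0 UMIs and 0 and 2 UMIs. All of these stayed under the filter on low counts.

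**Figure D2:**
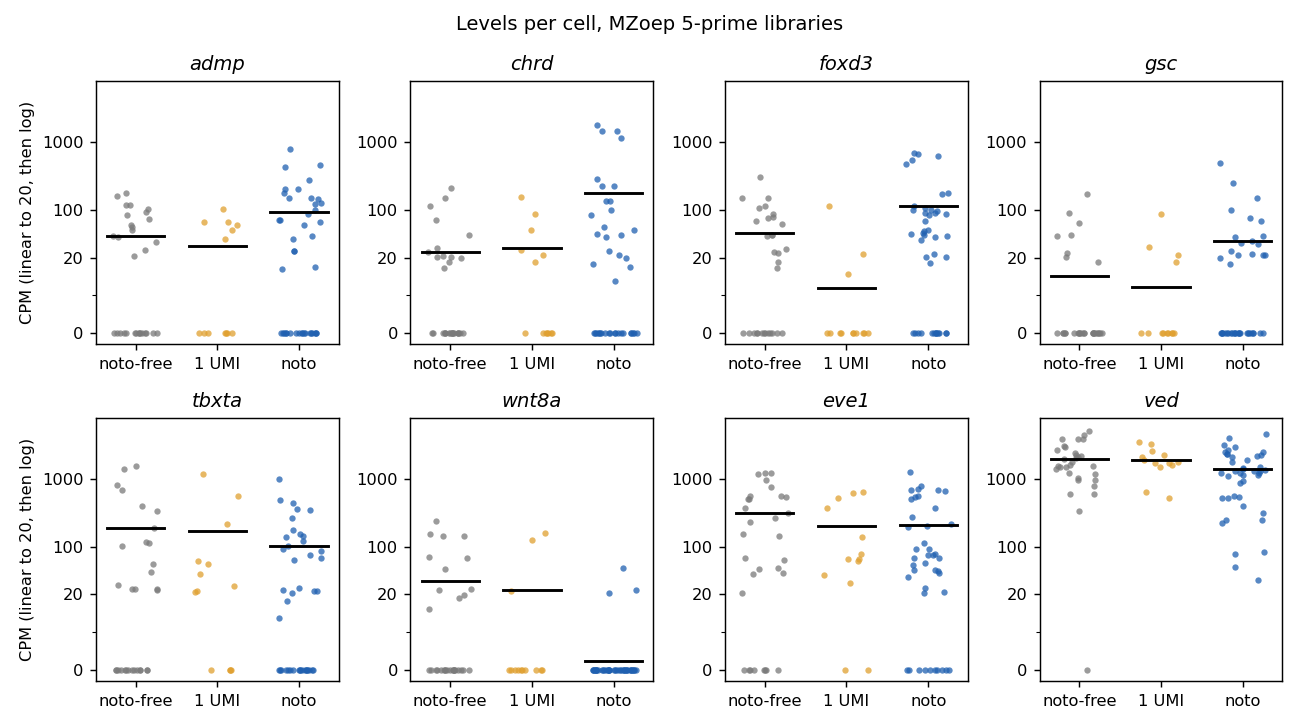
Level of 8 genes in each MZoep cell with a 5-prime library, in CPM on an axis that is linear up to 20 and logarithmic above, for noto-free cells (31, grey), cells with 1 noto UMI (13, orange) and noto cells (42, blue); black lines are group means. The 4 noto cells highest in chrd stand clear of the rest, wnt8a has a UMI in 3 noto cells, and the groups overlap for every gene.

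The T-box gene tbxta, required in zebrafish for the notochord and the posterior body, had a lower mean in noto cells, unlike the dorsal genes above. Its mean was 102.1 CPM in noto cells and 192.2 CPM in noto-free cells (log2 ratio -0.88, short of 2-fold). It was detected in similar shares, 24 of 42 cells (57.1%) and 17 of 31 cells (54.8%), with medians of 21.8 and 23.6 CPM. The highest cell had 1010 CPM on the noto side and 1538 CPM on the noto-free side. The difference in means lies in few cells: 4 noto-free cells with 40 or more UMIs held 78.9% of that side's tbxta UMIs, and 1 noto cell with this many held 21.4% of its side's.

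Of 33 genes of the margin and its mesoderm, 30 have a row and 18 were compared. The Snail gene snai1b was called higher, wnt8a was called lower, and the median was -0.31, with 13 of 18 below 0; over all compared genes, 1.28% were higher and 1.43% lower. The transcriptional repressor snai1b had a mean of 56.6 CPM in noto cells and 19.9 CPM in noto-free cells (log2 ratio 1.31). It was detected in 30 of 42 cells (71.4%, 55.4 to 84.3) and 12 of 31 cells (38.7%, 21.9 to 57.8). Its highest cells held 222.4 and 162.3 CPM, so that unlike chrd its difference was spread over many cells. The 13 cells with 1 noto UMI had the highest mean, 100.9 CPM, but a median of 41.4 CPM and a highest cell at 432 CPM. By noto count (0, 1, 2 to 4, 5 to 9, 10 or more) the medians were 0, 41.4, 67.96, 0 and 74.8 CPM. Thus snai1b did not follow the noto count, and with cells thinned and regrouped its ratio was 0.27. Its paralog snai1a was in all 73 cells at 311 and 319 CPM (log2 ratio -0.04).

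Several other genes of this list had lower means in noto cells without a 2-fold difference. The ventral margin homeobox gene eve1 had 208.8 and 316.5 CPM (-0.59) and cdx4, a posterior homeobox gene, 51.2 and 88.1 CPM (-0.73). Much of both genes lay in few cells. On the noto-free side, 6 cells with 10 or more tbxta UMIs held 63.45% of the eve1 UMIs and 73.4% of the cdx4 UMIs. On the noto side, 7 such cells held 47.1% and 47.96%. The median of cdx4 in noto-free cells was 0. The part of these cells in both ratios was not tested. The Notch ligand genes dlc and dld had log2 ratios of -0.83 and -0.65, and the hairy-related gene her7 had -0.59. By contrast the Mix-like homeobox gene mixl1 (0.11), the apelin receptor aplnra (0.08) and the T-box gene eomesa (0.29) were near equal. The actin-bundling gene fscn1a was present in every cell (-0.08).

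The ligand gene wnt8a, which patterns the ventrolateral margin, had the lowest ratio of this list. The 42 noto cells held 4 UMIs in all, in 3 cells, and the 31 noto-free cells held 50 UMIs in 12 cells. The means were 2.21 and 31.4 CPM (log2 ratio -2.33), with medians of 0 on both sides and highest values of 49.4 and 238.9 CPM. The shares were 7.14% (exact interval 1.498 to 19.5) and 38.7% (21.9 to 57.8), and with each cell thinned to 25000 UMIs they were 7.14% and 32.3%. The 13 cells with 1 noto UMI had a mean of 23.4 CPM with 3 cells positive. That mean rests on 2 cells, which held 94.1% of the wnt8a UMIs of the 13. No noto cell had 3 or more wnt8a UMIs, against 6 noto-free cells. Without the single highest cell, which was a noto-free cell, the ratio was -2.03.

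Of the Wnt pathway list, 15 of 21 genes with a row were compared, and wnt8a and sp5a were called lower and none higher (median -0.03), beside 1.43% of all compared genes lower and 1.28% higher. The Wnt target sp5a had 17 UMIs in noto cells and 55 in noto-free cells (8.69 and 35 CPM, log2 ratio -1.55), seen in 10 and 9 cells. On the noto-free side 2 cells with 10 or more sp5a UMIs held 63.6% of them, and 0 noto cells had as many. The paralog sp5l was near equal at 224.8 and 217.7 CPM (0.04), as was the feedback gene axin2 (-0.14). The gene rspo3, which encodes an R-spondin that enhances Wnt signals and was not on the list, was among the 12 lowest genes, with 5 UMIs in 2 noto cells and 32 UMIs in 10 noto-free cells (-1.94). The other Wnt ligand compared, wnt11, had 102.2 and 126.1 CPM (-0.29).

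Cells with 10 or more tbxta UMIs occurred on both sides, 7 noto cells (16.7%, exact interval 6.97 to 31.4) and 6 noto-free cells (19.4%, 7.45 to 37.5); this limit was also set after the values were seen. The 6 noto-free cells held 0, 1, 4, 7, 7 and 14 wnt8a UMIs, and all 7 noto cells held 0. Transcripts of sp5a came to 44 UMIs in the former and 3 in the latter. The noto cells had 4 to 44 eve1 UMIs and the noto-free cells 25 to 73. Counts of chrd were 0 in all 6 noto-free cells and 0 to 58 in the noto cells, 1 of which is also among the 4 highest in chrd. Of 3 cells with 1 noto UMI and this much tbxta, 1 held 10 wnt8a UMIs and the others 0. Among cells high in tbxta, wnt8a was thus found beside noto at 0 or 1 UMI and not beside 2 or more, in 16 cells of 1 sample. The sides were not matched in tbxta itself. The 7 noto cells held 10 to 40 tbxta UMIs (median 18), and the 6 noto-free cells held 15 to 81 (median 42). The part of the tbxta level in these differences was not tested.

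Genes of the BMP pathway and the ventral side tended slightly lower without large differences. Of 32 genes, 26 were compared, 0 were called higher and 1 lower, and the median was -0.25 with 18 of 26 below 0. Over all compared genes 1.43% were called lower, and 4839 of 9517 were below 0. The called gene was klf2b, a Krüppel-like factor gene, with 23.1 and 57.1 CPM (-1.14) in 27 and 25 cells. The ligand genes bmp2b (-0.28), bmp4 (-0.21) and bmp7a (0.17) differed little. The secreted BMP feedback gene szl (sizzled) had 139.0 and 230.7 CPM (-0.71), and msx1b, a homeobox gene induced by BMP, 40.9 and 81.5 CPM (-0.92). The broadly expressed BMP target id1 was near equal at 2799 and 2703 CPM (0.05).

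The 3 ventral repressors, which restrict organizer genes, were all abundant, and none was called. Levels of ved were 32.8 to 4662 CPM (median 1271) in noto cells and 0 to 5155 CPM (median 1624) in noto-free cells, with means of 1426 and 1997 CPM (-0.48). The means of vent were 102.8 and 138.1 CPM (-0.41). For vox they were 1091 and 928 CPM (0.23), with a UMI in all 73 cells.

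Members of the Nodal pathway were little different. Of 18 genes, 16 have a row and 10 were compared. Of these, 0 were called in either direction, beside 1.28% of all compared genes higher and 1.43% lower, and their median was 0.09. The receptor genes acvr1ba (0.20), acvr1bb (0.04) and acvr2b (0.11), the ligand gene gdf3 (-0.17) and the transcription factor genes smad2 (0.07), smad4 (-0.06) and foxh1 (0.06) lay close to 0. The largest ratios, of acvr2ab (0.96; 29 and 8 UMIs) and smad3a (0.93; 34 and 10 UMIs), rest on few UMIs. The Nodal ligand gene ndr1 had 8 UMIs in 2 noto cells and 2 UMIs in 1 noto-free cell. Its relative ndr2 had 2 UMIs and 1. The Nodal inhibitor gene lft1 had 6 UMIs against 1, 5 of them in 1 of the 4 cells high in chrd, and lft2 had 9 against 3. Transcripts of these 4 genes, which Nodal signals induce in wild-type embryos, were sparse on both sides.

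Neural and animal ectoderm genes gave 14 comparisons of 22 members, with 1 called higher (1.28% of all compared genes were), 0 lower and a median of 0.14. The forkhead gene foxb1a, a neural gene, had 44 UMIs in 17 noto cells and 7 UMIs in 4 noto-free cells (1.46). The 4 cells high in chrd held 56.8% of its UMIs in noto cells, and without them its ratio was 0.61. The SoxB1 gene sox2, a neural progenitor gene, had 88.9 and 60.7 CPM (0.52) and was seen in 31 of 42 cells (73.8%) and 16 of 31 cells (51.6%). Its abundant relative sox3 had 1324 and 1136 CPM (0.22).

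Split by noto count, the means did not all run in 1 direction. The classes of 0, 1, 2 to 4, 5 to 9 and 10 or more UMIs held 31, 13, 17, 15 and 10 cells. Mean ved was 1997, 1926, 1654, 1405 and 1068 CPM in that order, and mean tbx16 was 1127, 1001, 1054, 950 and 768 CPM. The medians of ved were 1624, 1762, 1903, 1318 and 1142 CPM, so its steady fall was in the means only. Without the 4 cells high in chrd, the means of the last class were 1315 CPM for ved and 856 CPM for tbx16. Mean wnt8a was 31.4, 23.4, 2.91, 1.37 and 2.29 CPM, with a median of 0 in every class. The mean at 1 UMI rests on 2 cells with 94.1% of that class's wnt8a UMIs. Mean admp was 40.9, 29.7, 106.7, 44.8 and 140.8 CPM and did not follow the noto count. Mean chrd was 24.4, 27.9, 134.4, 156.3 and 279.6 CPM, but its medians were 0, 0, 21.5, 0 and 18.7 CPM. Without the 4 cells high in chrd its means were 24.4, 27.9, 51.8, 38.1 and 23.3 CPM, so the order of the classes rests on those cells. For sox2 the means were 60.7, 49.3, 77.1, 65.05 and 144.6 CPM. These are averages over few cells.

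**Figure D3:**
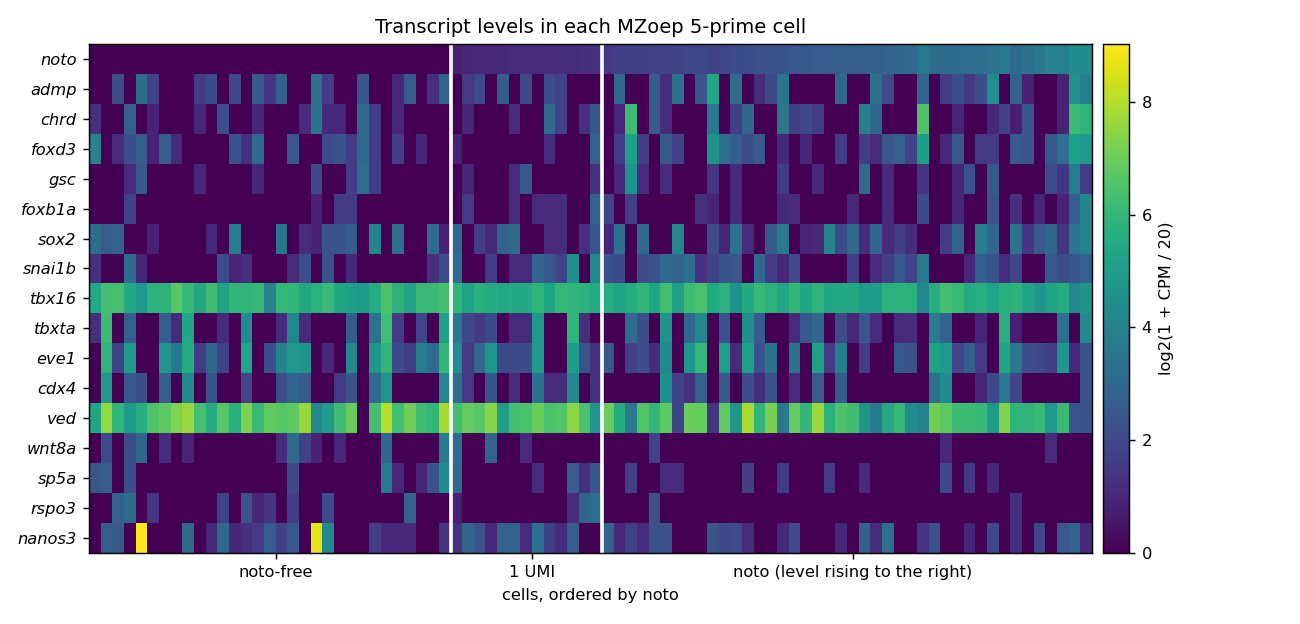
Levels of 17 genes (rows) in the 86 kept MZoep cells with 5-prime libraries (columns), as log2(1 + CPM / 20), with cells ordered by noto and white lines between noto-free cells, cells with 1 UMI and noto cells. High chrd and foxd3 with low ved share a few columns on the noto side, wnt8a and rspo3 lie mostly left of the noto cells, and nanos3 is bright in 2 noto-free cells. A noto-free cell at 0 CPM of ved also has chrd and foxd3, each at 149 CPM.

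Markers of other cell types that hand-picked cells could include were read in the same way. Of 10 germ cell genes, 8 were compared, 0 were higher and 7 were lower, with a median of -1.97; the share of all compared genes called lower was 1.43%. The summed level of the list ran from 22.4 to 951.5 CPM (median 321.7) in noto cells and from 27.7 to 35020 CPM (median 404.1) in noto-free cells. The difference lay in 2 noto-free cells with 512 and 580 UMIs of nanos3, an RNA-binding protein gene of germ cells. They held 94.5% of the side's nanos3 UMIs, 94.5% of dnd1 (a germ plasm RNA-binding protein gene) and 66.6% of ddx4 (vasa, a germ cell helicase gene). Both cells had 0 noto UMIs, and 9 and 11 admp UMIs. The highest chrd count of a noto-free cell, 13 UMIs, was in 1 of them. Together they held 30.8% of the admp, 34.2% of the chrd and 37.5% of the gsc UMIs of the noto-free side. Without the 2 cells nanos3 (-0.33), dnd1 (-0.35), ddx4 (-0.35), ca15b (-0.44) and actl7a (-0.42) were not called, and tdrd7a (0.23) and dazl (0.05) changed sign. The dorsal ratios were larger without them, at 1.40 for admp and 2.93 for chrd, and wnt8a stayed at -2.20.

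Over all compared genes, 1.28% were called higher and 1.43% lower. Enveloping layer genes, such as keratins and claudins of the outer epithelium, gave 0 calls among 15 compared (median -0.07). Their summed level was 176 to 9633 CPM (median 2016) in noto cells and 81.2 to 5839 CPM (median 2137) in noto-free cells. In full-length MZoep cells, split by noto as described below, 14 genes of this list had a median log2 ratio of 0.40 and 0 calls. By batch that median was -1.28, 0.29, 1.11 and 0.20 in p1 to p4, so it differed in sign between batches. Of the yolk syncytial layer list only mxtx2 could be compared (0.84, with 50 UMIs in 13 cells and 21 UMIs in 5 cells), and mxtx1 had 1 and 2 UMIs. The endoderm genes sox32 and sox17 had 6 and 14 UMIs and 2 and 0 UMIs, too few to compare. How far these cell types bear on the comparison was not tested beyond the values without the 2 cells high in nanos3.

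In the remaining lists few genes stood apart, beside 1.28% of all compared genes called higher and 1.43% called lower. Among 11 FGF pathway genes compared 0 were called (median 0.06), among 13 maternal oocyte genes 0 (median -0.11), and among 6 p53 response genes 0 (median 0.13). The immediate early gene ier2 was called higher (1.04; 62 UMIs in 13 cells and 23 UMIs in 6 cells) among 6 compared in its list (1.28% of all compared genes were), and its ratio was 0.06 without the 4 cells high in chrd. Cell cycle lists gave 0 calls among 17 genes of S phase (median 0.02) and 18 of G2 and M phase (median -0.01). Ribosomal protein genes gave 0 calls of 74 (median 0.001) and housekeeping genes 0 of 16 (median -0.03).

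The 12 highest genes by ratio began with chrd, followed by si:dkey-166k12.6 (1.71), cabz01028770.1 (1.62), iqgap3 (1.62), rfx5 (1.61), limch1b (1.61), gbgt1l4 (1.599), adcy6b (1.58), slc1a3b (1.57), fam84a (1.52), rilpl2 (1.49) and arhgap4b (1.48). They had 30 to 100 UMIs in noto cells and 3 to 18 in noto-free cells, chrd aside. The uncharacterised si:dkey-166k12.6 was detected in 31 of 42 noto cells and 8 of 31 noto-free cells. The 12 lowest were nanos3 (-3.97), dnd1 (-3.92), ca15b (-2.82), actl7a (-2.61), wnt8a (-2.33), tdrd7a (-2.30), zgc:158343 (-2.04), rspo3 (-1.94), grm4 (-1.80), sinup (-1.77), isoc1 (-1.74) and 1 further uncharacterised gene (-1.69). Of these, nanos3, dnd1, ca15b, actl7a and tdrd7a had 83.1% to 94.5% of their noto-free UMIs in the 2 cells high in nanos3. A gene could pass the filter through its high side alone, so a place at either end describes the gene and no more. Among those that passed in this way were wnt8a and rspo3 at the low end and the called genes foxb1a and ier2. At the high end adcy6b, with a mean of 2.19 CPM in noto-free cells, did so too. This is not a full list of such genes.

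Full-length libraries of MZoep cells, which had no part in choosing the members, were split in the same manner. Cells with noto at 5 FPKM (FPKM counts fragments relative to transcript length and library size) or more numbered 96 and cells listed at 0 numbered 117, with 31, 38, 21 and 6 of the former and 34, 34, 33 and 16 of the latter in batches p1 to p4. Ratios were taken from means weighted alike over batches with 1 FPKM added. The depth of these libraries is unknown, so no counting interval is given. Of 6872 genes compared, 15 were called higher (0.218%) and 16 lower (0.233%), with a median of 0.04 (log2).

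The one gene called higher in both sets of libraries was admp. Its full-length means were 20.1 and 6.97 FPKM (log2 ratio 1.40), and the noto cells were higher in every batch (1.36, 0.55, 2.496 and 1.005 in p1 to p4). For foxd3 the means were 11.8 and 6.45 FPKM (0.78), with ratios of 0.01, 0.72, 1.51 and 1.02. The large UMI ratio of chrd did not recur: its means were 12.9 and 10.1 FPKM (0.32), and the batches differed in sign (-1.40, 0.95, 1.43 and -0.14). For gsc the ratio was 0.38, with -1.08 in p4. For snai1b it was 0.40 and for tbx16 it was -0.04.

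On the lower side, tbxta had full-length means of 25.1 and 51.1 FPKM (-0.999), lower in p1, p2 and p3 (-1.22, -1.04 and -0.91) and at 0.21 in p4, which has 6 noto cells. The ratios of eve1 (-0.58) and cdx4 (-0.60) also took the sign of the UMI values, and both were above 0 in p4. For wnt8a the means were 3.06 and 5.22 FPKM (-0.62), with -0.66, -1.10, -0.73 and 2.54 in p1 to p4, so the full-length difference was far smaller than the UMI one. For sp5a the ratio was -0.58, and for rspo3 it was 0.36, against the UMI direction. Among ventral genes szl (-0.95), ved (-0.47) and vent (-0.26) were lower in both sets, though ved was above 0 in p4. The ventral ectoderm forkhead gene foxi1 was lower in all 4 batches (-1.38, with -0.26 in UMI cells), and klf2b did not recur (0.33). The apelin receptor gene aplnrb was the only margin gene called lower (2.05 and 6.59 FPKM, -1.32), and it was lower in all 4 batches and at -0.51 in UMI cells. The median of the BMP and ventral list was -0.31 over 23 genes, with msx3 (-1.05) and foxi1 called lower.

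**Figure D4:**
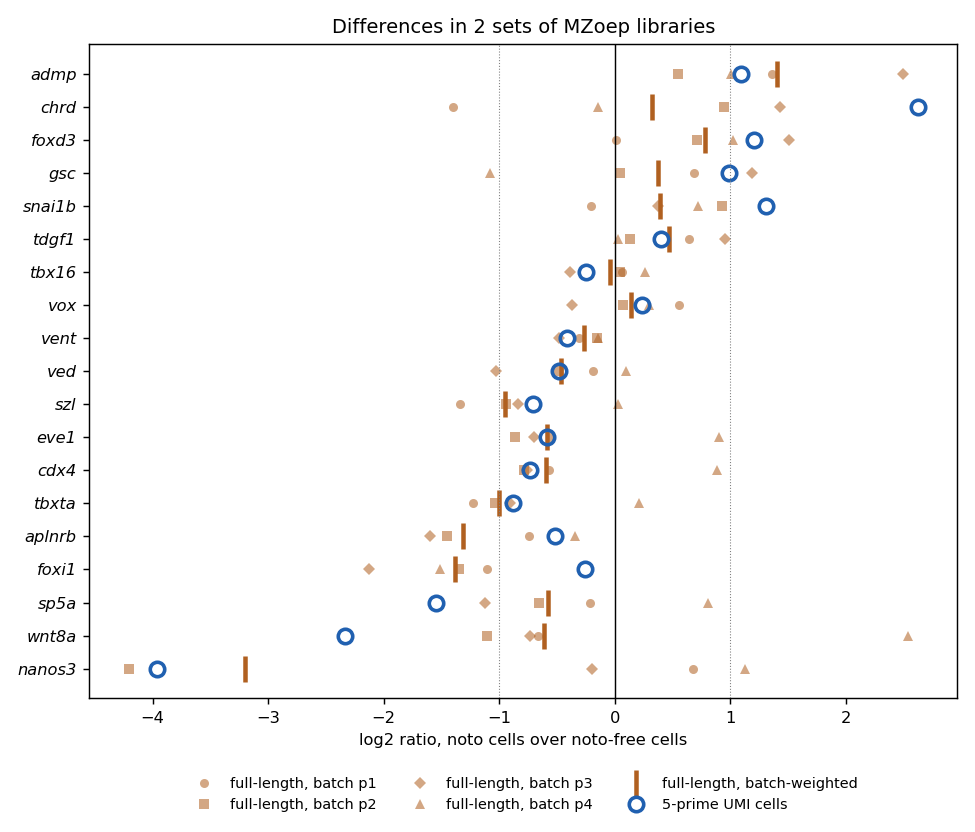
Log2 ratio of noto cells over noto-free cells (horizontal axis) for 19 genes in MZoep cells, with blue circles for 5-prime UMI cells, brown bars for the batch-weighted full-length value and brown symbols for full-length batches p1 to p4; dotted lines mark 2-fold. All 4 batches put admp above 0 and foxi1 below 0, the batches of chrd lie on both sides of 0, and tbxta, eve1, cdx4 and wnt8a are below 0 except in p4.

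Calls shared by the library types were few. Of 6517 genes compared in both, 57 were called higher in UMI cells and 12 in full-length cells, and 1 in both (1.75% and 8.33% of each). Over all 6517 genes, 0.184% were called higher in full-length cells and 0.184% lower. Of the 57, 28 had a full-length ratio above 0 (49.1%, against 57.2% of all 6517 genes). Called lower were 51 and 12, with 4 in both (7.84% and 33.3%): nanos3, dnd1, tdrd7a and actl7a. The full-length ratio of nanos3 was -4.21 in p2, and 0.68, -0.20 and 1.13 in p1, p3 and p4. In UMI cells, the 2 cells high in nanos3 held 83.1% to 94.5% of the noto-free UMIs of these 4 genes. Leaving out the full-length cells highest in nanos3 kept all 96 noto cells and cut the noto-free cells from 117 to 115. Those cells were thus noto-free too, and their part in the 4 shared calls was not tested. Of the 51, 34 were below 0 in full-length cells (66.7%, against 42.8% of all). The share of genes called higher in UMI cells that kept their sign was thus not above that of all genes.

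Wild-type cells, which can receive Nodal signals, are described in the same way, though only 30 noto cells and 12 noto-free cells were available. Batch p1, with 3 of these noto cells, held no noto-free cell and had no part in the ratios. The noto-free cells also had fewer genes at 1 FPKM or more (medians of 5861, 5997 and 4418 in p2 to p4, against 7012, 6972 and 7606), and 12.8% of 6811 genes were called higher and 9.91% lower. In these cells admp had a log2 ratio of 4.38, gsc 3.55, chrd 1.97 and foxd3 1.78. The ratios of tbxta (1.59), eve1 (1.93) and cdx4 (2.22) were above 0, opposite to the batch-weighted values in MZoep, and wnt8a was at -2.39. These differences between genotypes were not tested, and the number of genes per cell moves with them. The p53 response genes also differed between the wild-type groups. Of 8 compared, 5 were called lower in noto cells and 0 higher (median log2 ratio -1.68), beside 9.91% of all compared genes lower.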

How the data were processed

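Deposited UMI counts (19205 genes) of the 5-prime cells and deposited FPKM values (25208 genes) of the full-length cells were used. Bowtie2, RSEM and the genome build GRCz10 are named in the submitters' processing notes, without versions or roles; how the authors collapsed UMIs is not given in the sources used. The 328 columns of full-length cells in the count table hold only 0 and were not used. Counts were scaled to CPM per cell over all genes. Full-length cells with fewer than 1500 genes at 1 FPKM were left out (36 of 328); genes needed 1 FPKM in at least 20% of the cells of either side and a mean of 5 FPKM on either side. Batch weights were the product of the numbers of noto and noto-free cells over their sum. No clustering was made and no doublet caller was run.

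Named were the 12 highest and 12 lowest ratios, genes of the dorsal, margin and Nodal lists, and from other lists the called genes plus examples; 20 lists held 322 symbols, 297 of them with a row, some matched through synonyms in RefSeq. The members and lists were chosen with earlier results of these data known. The computation of the ratios was tested on simulated data with known differences; no value from it is reported. Alternatives covered pseudocounts, filters, thresholds, thinning, averaging and single cells or batches left out. Python 3.11.15, numpy 2.4.6, pandas 2.3.3 and scipy 1.17.1 were used.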

Additional observations from a re-analysis of the deposited data

Results flagged for a closer look

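For 3 of 234 named or listed genes (1.28%) the full-length difference between noto cells and noto-free cells had 1 sign in every MZoep batch and the opposite sign in every wild-type batch with both kinds of cell, and was at least 2-fold in at least 1 genotype. Of all 9517 genes compared in UMI cells, 57 met this rule (0.599%). The difference between genotypes was not tested. The activin receptor gene acvr2ab had a log2 ratio of -0.54 in MZoep and 1.30 in wild type, and 0.96 in MZoep UMI cells. The rule did not apply the filter of the full-length comparison, and acvr2ab did not pass that filter in MZoep cells. The ventral repressor gene vent had -0.26 and 1.59. The egg envelope gene zp2, listed as zp2.2 in the maternal list, had -0.17 and 1.18. Wild-type noto-free cells numbered 2, 8 and 2 in p2 to p4 and had fewer detected genes than wild-type noto cells; the part of this in the 3 values was not tested.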

How the results depend on the processing

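The counts of called genes moved most. In UMI cells 122 higher and 136 lower genes became 273 and 261 with a pseudocount of 1 CPM, 4 and 9 with 20 CPM, 0 and 0 with the mean of log2(CPM + 20), 255 and 266 with a filter of 10 UMIs and no minimum share of cells, 18 and 28 with 100 UMIs, and 79 and 77 without the highest cell of each gene. Averaging log2 values per cell gave 0.42 for admp and also 0.42 for the median of the axis and organizer list. The ratio of admp was 0.40 in thinned cells, and that median was 0.29 without cells holding 50 or more chrd UMIs. In full-length MZoep cells 15 higher and 16 lower genes became 49 and 36 with noto at 20 FPKM or more, 1 and 4 with a pseudocount of 5 FPKM, 47 and 28 without p1, 52 and 32 without p2, 29 and 33 without p3, 6 and 8 without the highest cell of each gene, and 3 and 0 with the mean of log2(FPKM + 1). Removing cells or adding 20 CPM weights low genes and single high cells less by construction; other causes were not tested. Of single genes, tdrd7a (0.23) and dazl (0.046) reversed without the cells holding 100 or more nanos3 UMIs. The ratio of tbx16 and the median of the margin list kept their sign under all 14 alternatives, as did admp, at 0.40 to 1.40. The alternatives that leave out cells high in chrd or nanos3 were chosen after seeing the data. No paired analysis was possible because all compared UMI cells are 1 sample and no replicate number links cells.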
